A study of Homo sapiens with 17 samples.

Results

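Interferon-stimulated genes, together with the receptor chains, RNA sensors and transcription factors that act before them, were followed in Jurkat cells exposed to the protein ILT3.Fc. The 49 genes were taken by symbol from a written list of interferon-induced effectors, sensors, interferon regulatory factors and antigen processing genes, and each of the 49 was found among the 25548 symbols of the expression table. Jurkat is an established cell line, derived from a human T cell leukaemia. ILT3.Fc is a soluble fusion of the outer domain of ILT3, an inhibitory receptor, with an antibody Fc fragment. Cells received 0, 12.5 or 25 µg/ml for 6, 12 or 24 h, and polyadenylated RNA was sequenced in 17 libraries. The untreated 12 h group had 1 library and the other 8 groups had 2. Every group, controls included, was the same line in the same serum-containing medium, and the labels name no other change. The labels call the samples duplicated without saying whether they came from separate cultures, so the p-values reflect the spread of these libraries alone, and part of it may be technical.

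Type I interferons bind a receptor of the chains IFNAR1 and IFNAR2, whose kinases activate STAT2. In a complex with IRF9 it binds the interferon-stimulated response element in promoters, which switches on genes that block viral entry, translation and release. Cytosolic sensors of viral RNA work through IRF3 and IRF7, which start transcription of the interferon genes themselves.

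Values are FPKM, a count of fragments adjusted for gene length and library size, so levels can be compared between genes. Sums of FPKM ran from 504362 to 557390, relative depth from 0.67 to 1 of the deepest library, and duplicates correlated at 0.9795 to 0.9863. The absolute depth is unknown. All 12 T cell markers examined were at a mean of 1 FPKM or more, led by CD3D at 547.34 FPKM, and of 5 B cell markers 1 was, CD79A at 39.47 FPKM (33.39 to 48.12), while MS4A1 and PAX5 were at means of 0.01 FPKM or less. Markers of plasmacytoid dendritic cells, a main source of interferon in blood, summed to between 0.02 and 0.14 FPKM per library. In replicate 1 of 12.5 µg/ml at 6 h the departure of genes from the average library tracked their length (Spearman -0.60 across genes), and in replicate 2 of 25 µg/ml at 24 h it tracked their GC content (0.56). Lane 4 of the sequencer carried the 24 h libraries and the first replicates of 6 h, and lane 5 the others.

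RefSeq promoter windows of 300 bases on GRCh38.p14, from 250 bases before to 50 after the start of each gene, were matched by symbol for 37 of the 49 genes. IFNAR2, IRF2, IRF3, IRF7, OAS2, OASL, MX2, IFIT2, IFITM2, TRIM22, USP18 and PML had no entry. The core of the interferon-stimulated response element was searched on both strands as GAAA, then any 2 bases, then GAAA. It was found in 22 of 37 windows (59.5%), against 996 of 27305 windows of the same length (3.65%) and 244 of 8984 genes tested here (2.72%). The core of the gamma-activated site, TTCNNNGAA where N is any base, was found in 9 of 37 (24.3%), against 2152 of 27305 windows (7.88%). The 2 patterns can overlap. GAAA and GAAA at any other spacing were not counted. A match is a description of the letters and not of a factor bound there.

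The windows below belong to the 4 matched genes whose level moved most with 25 µg/ml, IFI44, XAF1, TRIM21 and OAS3, and to 2 genes that were nearly silent, IFI44L and MX1. SAMHD1, also nearly silent, had no match to the response element core. The core was found in 3 of 5 windows of genes with a mean below 1 FPKM and in 19 of 32 of the others. Capitals mark matches to the response element core on either strand, and each line runs 5′ to 3′ on the strand of the gene.
IFI44: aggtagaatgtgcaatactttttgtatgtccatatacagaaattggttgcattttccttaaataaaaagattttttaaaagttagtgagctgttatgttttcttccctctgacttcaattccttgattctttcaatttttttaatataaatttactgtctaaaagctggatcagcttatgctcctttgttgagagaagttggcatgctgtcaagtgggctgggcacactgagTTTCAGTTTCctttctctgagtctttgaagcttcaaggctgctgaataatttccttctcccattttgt
XAF1: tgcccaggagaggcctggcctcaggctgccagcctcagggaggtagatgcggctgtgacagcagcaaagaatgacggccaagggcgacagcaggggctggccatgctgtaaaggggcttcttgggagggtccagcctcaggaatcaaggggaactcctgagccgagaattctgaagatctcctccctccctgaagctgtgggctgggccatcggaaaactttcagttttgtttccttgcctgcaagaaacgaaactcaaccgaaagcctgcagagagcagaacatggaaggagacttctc
TRIM21: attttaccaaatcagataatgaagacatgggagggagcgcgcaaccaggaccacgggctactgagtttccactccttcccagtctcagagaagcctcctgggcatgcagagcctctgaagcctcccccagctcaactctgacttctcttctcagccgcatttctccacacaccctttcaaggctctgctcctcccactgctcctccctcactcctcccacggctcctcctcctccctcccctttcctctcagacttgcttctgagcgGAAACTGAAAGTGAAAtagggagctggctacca
OAS3: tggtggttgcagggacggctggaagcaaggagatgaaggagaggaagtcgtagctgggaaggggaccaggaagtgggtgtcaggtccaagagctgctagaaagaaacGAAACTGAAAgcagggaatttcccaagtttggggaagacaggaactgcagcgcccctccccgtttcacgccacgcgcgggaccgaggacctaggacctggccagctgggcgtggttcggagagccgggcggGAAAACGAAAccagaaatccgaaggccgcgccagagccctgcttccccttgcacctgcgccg
IFI44L: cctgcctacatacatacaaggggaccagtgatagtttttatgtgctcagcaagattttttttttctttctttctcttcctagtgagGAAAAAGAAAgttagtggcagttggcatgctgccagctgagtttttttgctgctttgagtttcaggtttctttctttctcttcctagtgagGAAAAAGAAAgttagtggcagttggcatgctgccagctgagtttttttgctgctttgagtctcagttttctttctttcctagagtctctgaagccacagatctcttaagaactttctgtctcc
MX1: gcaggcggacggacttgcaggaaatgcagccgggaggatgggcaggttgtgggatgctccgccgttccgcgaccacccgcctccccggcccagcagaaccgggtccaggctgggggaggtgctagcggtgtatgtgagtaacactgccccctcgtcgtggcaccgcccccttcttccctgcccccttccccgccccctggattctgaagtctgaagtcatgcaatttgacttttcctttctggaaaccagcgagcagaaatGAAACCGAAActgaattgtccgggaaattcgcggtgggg

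The IFI44 window lies at chr1:78649539-78649838 on the plus strand, and its match, read as TTTCAGTTTC, begins 18 bases before the start of the gene. The window of its neighbour IFI44L lies at chr1:78620198-78620497 on the plus strand and holds 2 matches with the same letters, GAAAAAGAAA, at 164 and 73 bases before the start. OAS3, at chr12:112938224-112938523 on the plus strand, has matches at 143 and 12 bases before the start. The TRIM21 window, at chr11:4393653-4393952 on the minus strand, holds 2 overlapping matches that begin at bases 17 and 23 after the start. MX1, at chr21:41420308-41420607 on the plus strand, has 1 match at base 11 after the start. XAF1, at chr17:6755796-6756095 on the plus strand, has no match to the pattern. Its window holds GAAACGAAA, where 1 base lies between the 2 GAAA, and the pattern could not match that spacing.

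Of the 49 genes, 41 (83.7%) were expressed at a mean of 1 FPKM or more over the 17 libraries, against 47.0% of all symbols. Their median level was 14.5 FPKM, close to the 15.1 FPKM of the 12015 genes tested. The count was 45 at a threshold of 0.5 FPKM and 39 at 2 FPKM, and 40 genes were at 1 FPKM or more in every library. B2M, the invariant light chain of MHC class I, was at 691.8, 732.6 and 819.4 FPKM in its lowest, median and highest library, at the 99.4th percentile of the genes tested. PSMB8, a catalytic subunit of the immunoproteasome, was at 126.3, 137.5 and 157.4 FPKM. ADAR, which edits adenosines in double-stranded RNA, was at 125.7, 153.8 and 157.3 FPKM. These ranges overlap, and ADAR and PSMB8 cannot be ordered beyond their spread. ISG15, a ubiquitin-like protein that is conjugated to other proteins, came next at 80.2, 92.4 and 117.1 FPKM, below the lowest library of PSMB8. Below it stood the viral release inhibitor BST2, also called tetherin (mean 63.9 FPKM), the immunoproteasome subunit PSMB9 (56.5 FPKM) and the receptor chain IFNAR2 (44.3 FPKM).

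**Figure D1:**
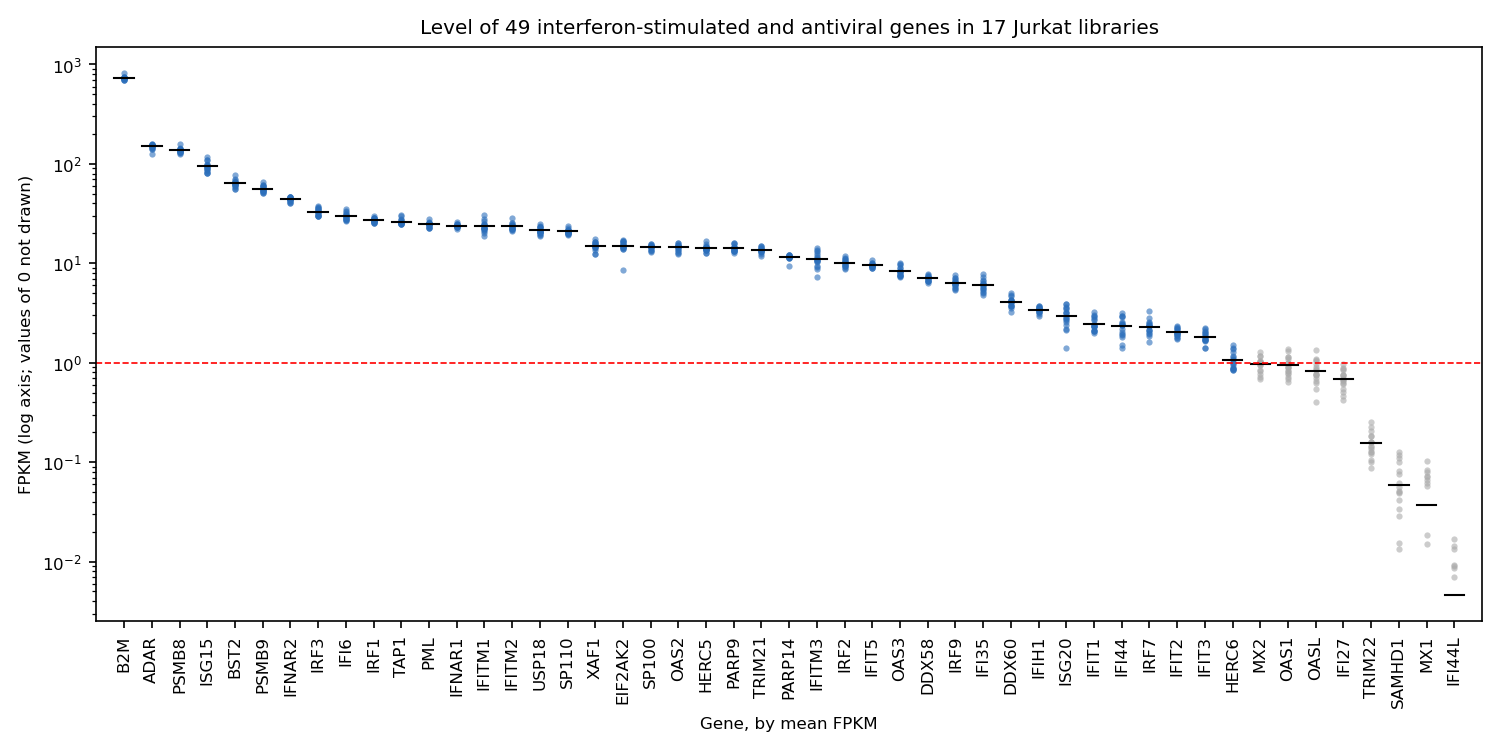
Level of each of the 49 genes in each of the 17 libraries (points, with values of 0 not drawn) and its mean (black bars), in FPKM on a log axis, ordered by mean. The 41 genes (blue) with a mean above the dashed line at 1 FPKM span from HERC6 at 1.07 to B2M at 731.9 FPKM, while TRIM22, SAMHD1, MX1 and IFI44L lie far below the rest.

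The receptor chains and interferon regulatory factors were all expressed (7 of 7), as were the ISG15 conjugation genes (4 of 4), the nuclear body and PARP genes (5 of 5) and the antigen processing genes (4 of 4). The sensors and oligoadenylate synthetases had 7 of 9 expressed, the antiviral effectors 10 of 14 and the other interferon-induced genes 4 of 6. The RNA sensors DDX58 (RIG-I) and IFIH1 (MDA5) had means of 7.08 and 3.42 FPKM. The IFIT proteins, which bind viral RNA ends and block translation, were low, with IFIT1 at 2.47, IFIT2 at 2.02 and IFIT3 at 1.82 FPKM, while IFIT5 was at 9.58 FPKM. USP18, which removes ISG15 from proteins and dampens signalling from IFNAR2, was well above them at 21.4 FPKM (SD 1.65, n = 17 libraries).

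The 8 genes below a mean of 1 FPKM included MX1 and MX2, GTPases that block viral replication and are among the classical interferon-induced genes. MX1 was at 0.0184 FPKM in its median library and 0.103 FPKM in its highest, and was listed at 0 in 7 libraries. IFI44L was listed at 0 in 10 libraries and reached 0.0169 FPKM. SAMHD1, a nucleotide triphosphatase that restricts retroviruses, was at most 0.125 FPKM and listed at 0 in 1 library, and TRIM22 was at most 0.251 FPKM. These 4 genes stayed below 1 FPKM at every dose and time, and IFI27 reached 0.965 FPKM. A level of exactly 0 in such a table can be a failed estimate. MX2 (mean 0.967 FPKM), OAS1 (0.939) and OASL (0.83) lay just under the threshold and passed 1 FPKM in some library, and HERC6 (1.07), IFIT3 (1.82) and IFIT2 (2.02) lay just above it. The 8 genes entered no test across genes.

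With 25 µg/ml ILT3.Fc, averaged over the 3 times, 5 of the 41 expressed genes rose and 2 fell. IFI44, XAF1, TRIM21, SP110 and SP100 were higher than in untreated cells, OAS3 and IRF3 were lower, and 34 genes did not pass the test. A gene was called by limma on log2(FPKM + 1) at an adjusted p under 0.05, with the adjustment made over all 12015 genes, and the log2 differences below are on that scale, which understates changes of low genes. The 7 calls are 17.1% of the 41 genes, against 9.47% of all genes tested. Calls of higher genes made up 5.47% of all genes and calls of lower genes 4%. The median difference of the 41 genes was 0.01, against 0.02 over all genes. In bulk RNA, fewer cells with a transcript and less of it per cell cannot be told apart.

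**Figure D2:**
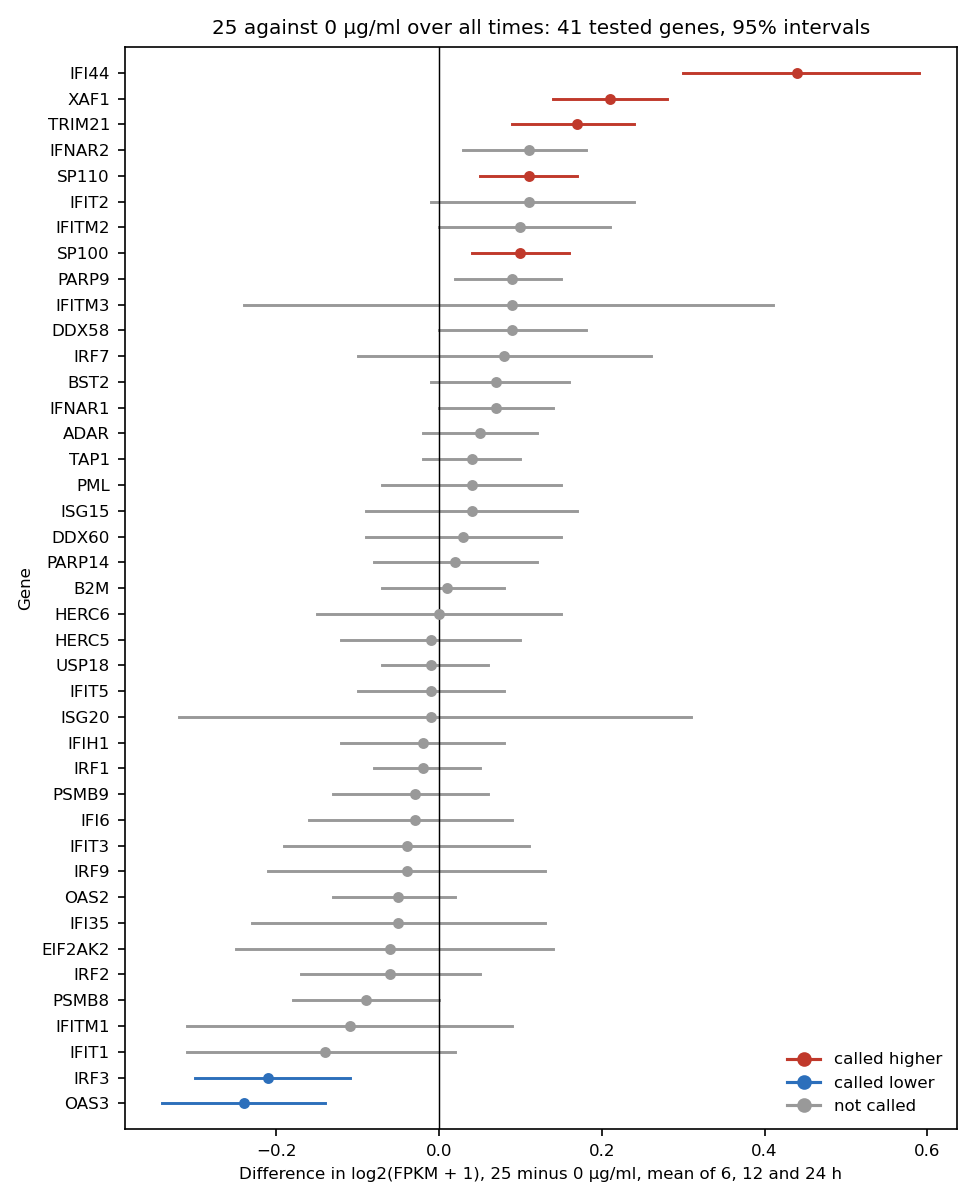
Difference between 25 and 0 µg/ml ILT3.Fc over all times for the 41 expressed genes, in log2(FPKM + 1) units, with 95% confidence intervals from limma. IFI44 lies farthest to the right at 0.44 and OAS3 farthest to the left at -0.24, and most intervals lie around 0.

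Among the other interferon-induced genes, 2 of 4 rose. IFI44, a cytoplasmic protein named for its induction by interferon, had the largest difference of the 41. Untreated libraries held 1.93 and 1.81 FPKM at 6 h, 1.88 FPKM at 12 h, and 1.49 and 1.42 FPKM at 24 h. With 25 µg/ml the values were 2.52 and 2.39 FPKM at 6 h, 2.37 and 2.97 FPKM at 12 h, and 2.91 and 3.16 FPKM at 24 h. Each of the 6 treated libraries was above each of the 5 untreated ones. The limma difference was 0.44 (SE 0.066, 95% interval 0.30 to 0.59, adjusted p = 0.00293). XAF1, which binds and opposes the apoptosis inhibitor XIAP, was at 14.8 and 15.6 FPKM without ILT3.Fc and 16.5 and 17.7 FPKM with 25 µg/ml at 6 h. The corresponding values were 13.6 FPKM against 15.5 and 16.4 FPKM at 12 h, and 12.3 and 12.4 FPKM against 15.4 and 14.6 FPKM at 24 h. XAF1 did not overlap within any time, but its untreated 6 h libraries lay at the level of the treated 24 h ones. It rose by 0.21 (SE 0.031, limma adjusted p = 0.00293).

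Among the antiviral effectors, 1 of 10 rose. TRIM21 is a ubiquitin ligase that binds antibody-coated virus inside cells and has a high affinity for antibody Fc. Its untreated values were 12.9 and 13.3 FPKM at 6 h, 12.5 FPKM at 12 h, and 13.1 and 11.9 FPKM at 24 h. With 25 µg/ml it was at 14.3 and 13.7, 13.5 and 14.8, and 15.1 and 14.6 FPKM. The 2 sets did not overlap, and the difference was 0.17 (SE 0.033, limma adjusted p = 0.0125). The other 9 effectors lay between -0.14 for IFIT1 and 0.11 for IFIT2, and the IFITM proteins, which block fusion of virus with the cell membrane, were at -0.11 (IFITM1), 0.10 (IFITM2) and 0.09 (IFITM3) without passing.

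Among the sensors and oligoadenylate synthetases, 1 of 7 fell. OAS3 makes 2′-5′ oligoadenylates, which activate the ribonuclease RNase L. Untreated cells held 10.1 and 9.94 FPKM at 6 h, 9.65 FPKM at 12 h, and 8.87 and 8.2 FPKM at 24 h. Cells given 25 µg/ml held 8.43 and 8.15, 7.58 and 7.51, and 7.53 and 7.61 FPKM. Treated libraries were lower within each time, and the untreated 24 h replicate 2 overlapped with the treated 6 h libraries. OAS3 fell by 0.24 (SE 0.045, limma adjusted p = 0.00868). Its relative OAS2 was at -0.05 and did not pass. Nor did the sensors DDX58 (0.09), IFIH1 (-0.02) and DDX60 (0.03), or EIF2AK2 (-0.06), the kinase PKR that halts translation on double-stranded RNA.

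Among the receptor chains and interferon regulatory factors, 1 of 7 fell. IRF3, the factor that starts interferon gene transcription after viral sensing, was at 35.7 and 34.8 FPKM in untreated cells at 6 h, 35.7 FPKM at 12 h, and 37.7 and 34.3 FPKM at 24 h. With 25 µg/ml it was at 30.0 and 30.7, 30.1 and 29.9, and 30.2 and 33.7 FPKM. Each treated library was below each untreated one, and IRF3 fell by 0.21 (SE 0.044, limma adjusted p = 0.0166). IFNAR2 was higher in each treated library than in each untreated one, at 44.4 to 46.9 against 40.8 to 44.3 FPKM, but its difference of 0.11 did not pass (limma adjusted p = 0.0798).

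The nuclear body genes SP110 and SP100, related chromatin-binding proteins, rose by the least. SP110 was at 19.8 and 19.7, 19.2, and 20.7 and 20.6 FPKM in untreated cells over the 3 times, and at 21.2 and 20.4, 21.7 and 21.6, and 22.4 and 21.6 FPKM with 25 µg/ml. SP100 was at 14.4 and 14.8, 13.3, and 13.6 and 14.5 FPKM without ILT3.Fc, and at 15.5 and 15.0, 15.5 and 15.0, and 14.8 and 14.6 FPKM with 25 µg/ml. Both overlapped between the groups when the times were pooled and did not overlap within a time. The differences were 0.11 for SP110 (SE 0.027, limma adjusted p = 0.032) and 0.10 for SP100 (SE 0.028, limma adjusted p = 0.0495). SP100 lost its call in 24 of 31 alternatives and SP110 in 15 of 31, among them the fits with libraries centred on their medians. None of the 4 ISG15 conjugation genes (-0.01 to 0.04) and none of the 4 antigen processing genes (-0.09 to 0.04) passed.

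For the 34 genes without a call, 95% intervals of the difference lay within 0.25 log2 units of 0 for 28 and within 0.5 for each of the 34. Over all libraries, IFNAR2, TRIM21 and IFI44 were higher in each treated library than in each untreated one (3 of 41 genes, 7.32%, against 2.98% of all genes), and IRF3 was lower in each (1 of 41, 2.44%, against 2.31%). Within each of the 3 times, 8 genes had treated libraries above the untreated ones (IFNAR2, ADAR, IFITM2, TRIM21, IFI44, XAF1, SP100 and SP110, 19.5% against 7.74% of all genes). IRF3, OAS3 and PSMB8 had them below (7.32% against 5.81%).

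**Figure D3:**
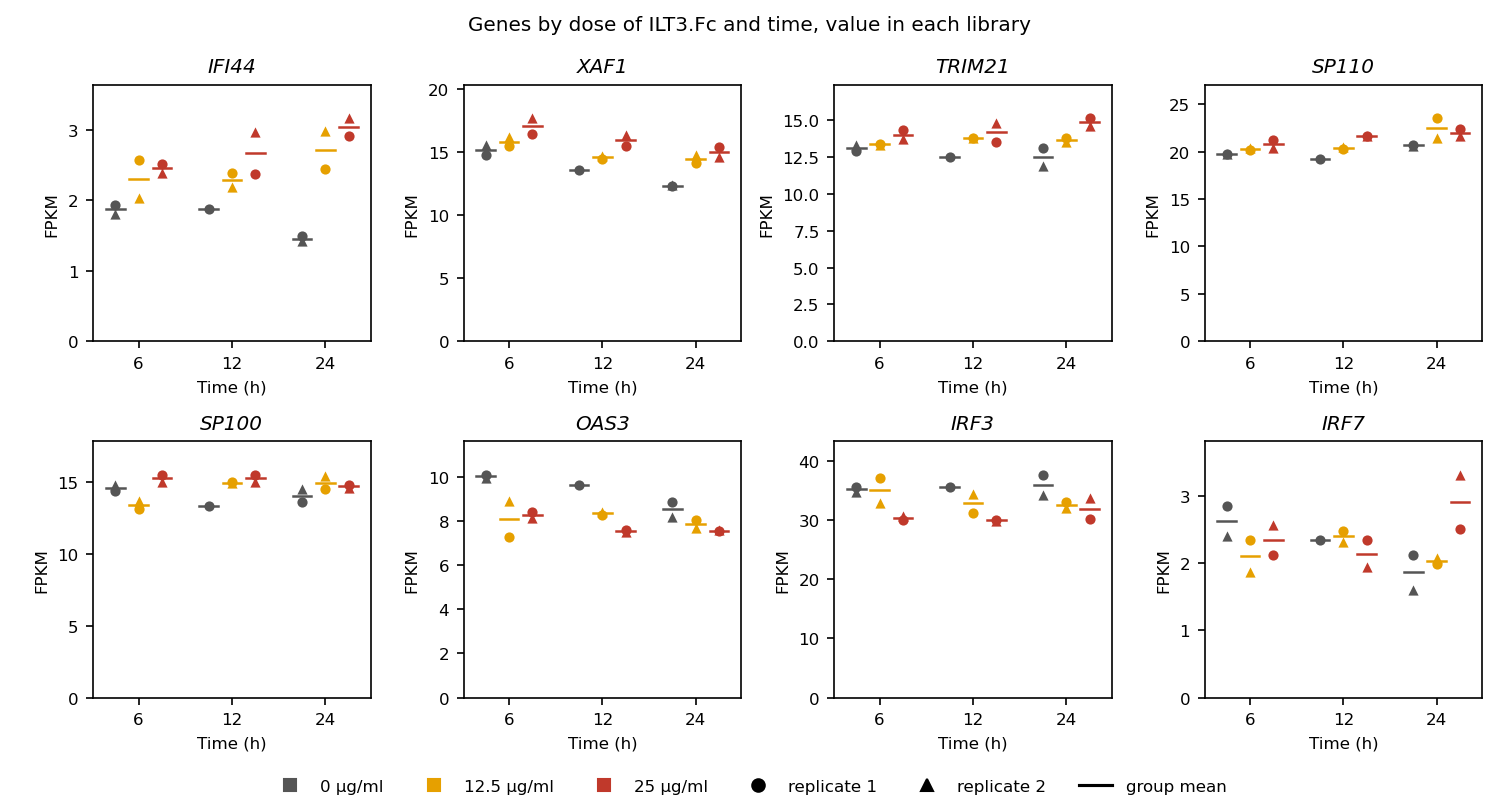
FPKM in each library of the 7 genes called for 25 against 0 µg/ml ILT3.Fc over all times and of IRF7, called at 24 h, by time, with dose by colour, replicate by marker shape and group means as bars. Treated IFI44 libraries lie above the untreated ones at each time, with the widest gap at 24 h, and IRF3 and OAS3 lie below.

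These 7 calls were refitted by lane and by time. With lane as a covariate SP100 lost its call (0.10, limma adjusted p = 0.0569). IFI44, XAF1, OAS3, TRIM21, IRF3 and SP110 kept theirs, with the largest adjusted p for SP110 (0.11, 0.0385). Fits of a single lane hold fewer libraries, and fewer of all genes were called in them than in the main fit (9.47%). In lane 4 alone, without 12 h libraries, IFI44 was at 0.49 (limma adjusted p = 0.107) and XAF1 at 0.20 (0.159). In lane 5 alone, without 24 h libraries, they were at 0.31 (adjusted p = 0.209) and 0.19 (0.153). OAS3 was at -0.19 and -0.29 (adjusted p = 0.19 and 0.137), IRF3 at -0.20 and -0.21 (0.209 and 0.171) and TRIM21 at 0.19 and 0.11 (0.195 and 0.32). SP110 was at 0.09 and 0.11 (0.397 and 0.175) and SP100 at 0.08 and 0.10 (0.416 and 0.233). Each kept its sign in both lanes and none passed in either. Without the 12 h libraries 4.06% of all genes were called. IFI44 (0.49, limma adjusted p = 0.0104) and XAF1 (0.21, 0.0242) kept their calls, and SP100 moved to 0.06 (0.372). Without the 24 h libraries none of the 7 passed, and 0.383% of all genes did. IFI44 was then at 0.31 (limma adjusted p = 0.178) and TRIM21 at 0.13 (0.194).

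The called genes were also counted by the letters of their promoters. Of the 19 tested genes with the response element core in their window, 2 rose and 1 fell with 25 µg/ml and the median difference was -0.01. Of the 13 without it, 3 rose and none fell and the median was 0.05. The windows of XAF1 and SP110, among those 3, hold GAAA and GAAA with 1 base between them. So do the windows of DDX58 and IFI35, which are also among the 13 and were not called. The pattern leaves out that spacing, and it was not searched for over all windows. These are counts, and the difference between them was not tested.

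At 12.5 µg/ml none of the 41 genes passed over all times by limma, where 0.283% of all genes were called, and 9 of the 41 had an unadjusted p under 0.05. IFI44 held 2.57 and 2.03 FPKM at 6 h, 2.38 and 2.19 FPKM at 12 h, and 2.45 and 2.98 FPKM at 24 h, above the untreated libraries throughout. Its difference was 0.33 (SE 0.066, limma adjusted p = 0.0874). The values of the other 6 genes called at 25 µg/ml were 0.12 for XAF1, 0.09 for TRIM21, 0.08 for SP110, 0.04 for SP100, -0.19 for OAS3 and -0.09 for IRF3. The 2 doses were compared with the same untreated libraries, so their values are set side by side and not counted as separate support. The doses themselves, 25 against 12.5 µg/ml, gave 0 of 41 calls by limma (0.283% of all genes), with 5 genes at an unadjusted p under 0.05. For IFI44 the difference between doses was 0.12 (95% interval -0.02 to 0.25), and for XAF1 0.09 (0.02 to 0.15, limma adjusted p = 0.287).

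By time, the effect of 25 µg/ml was called at 24 h alone. At 6 h limma called 0 of 41 genes (0.225% of all genes, with 6 of the 41 at an unadjusted p under 0.05), and at 12 h 0 of 41 (0.0499% of all genes, with 8 at an unadjusted p under 0.05, against 1 untreated library). At 24 h, 6 of 41 were higher and none lower. These 14.6% compare with 10.7% of all genes called higher at 24 h and 16.5% called in either direction. The 6 genes were IFI44, XAF1, TRIM21, PARP9, TAP1 and IRF7. The median of the 41 was 0.05, against 0.04 over all genes.

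IFI44 was 0.71 higher at 24 h (SE 0.11, limma adjusted p = 0.00209), from the values given above, and was at 0.27 and 0.34 at 6 and 12 h. XAF1 was 0.26 higher (adjusted p = 0.0079), after 0.16 and 0.22, and TRIM21 0.23 higher (0.0151), after 0.09 and 0.17. PARP9, which partners the ubiquitin ligase DTX3L in the interferon response, was at 13.4 and 14.1 FPKM in untreated cells at 24 h, 14.7 and 15.7 FPKM at 12.5 µg/ml, and 16.1 and 16.1 FPKM at 25 µg/ml. The groups did not overlap, and 25 µg/ml was 0.22 above untreated (SE 0.049, limma adjusted p = 0.0138). TAP1, which carries peptides into the endoplasmic reticulum for MHC class I, was at 25.5 and 26.2, 27.4 and 28.1, and 29.6 and 30.5 FPKM over the 3 doses. It too had no overlap between doses and was 0.21 higher (SE 0.046, limma adjusted p = 0.0124). IRF7, which amplifies interferon production, was low, at 2.13 and 1.6, 1.99 and 2.08, and 2.51 and 3.32 FPKM, and was 0.45 higher (SE 0.13, limma adjusted p = 0.0422). ISG15 was at 97.1 and 95 FPKM in untreated cells and 110.6 and 117.1 FPKM at 25 µg/ml, without a call (0.24, limma adjusted p = 0.107).

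Single libraries decide several of the 24 h calls. Without replicate 2 of 25 µg/ml at 24 h, the library that tracked GC content, IFI44 and XAF1 kept their calls. IRF7 was then at 0.30 (limma adjusted p = 0.284), PARP9 at 0.22 (0.0719), TAP1 at 0.19 (0.0885) and TRIM21 at 0.26 (0.0563). Without replicate 2 of untreated 24 h, IFI44 (0.69, adjusted p = 0.0248) was the 1 gene of the 6 that passed, with XAF1 at 0.26 (0.0538). PARP9 (0.19, adjusted p = 0.0825) and TAP1 (0.19, 0.0689) also lost their calls without replicate 1 of untreated 24 h, and TRIM21 (0.21, 0.0576) without replicate 1 of 25 µg/ml at 24 h. The call of IRF7 was lost in 12 of the 17 fits that each left out 1 library. IRF7 and TAP1 have a GC content of 66.8% and 57.5%, and after a correction of each library for GC content and length they were at 0.27 (adjusted p = 0.0985) and 0.09 (0.139).

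**Figure D4:**
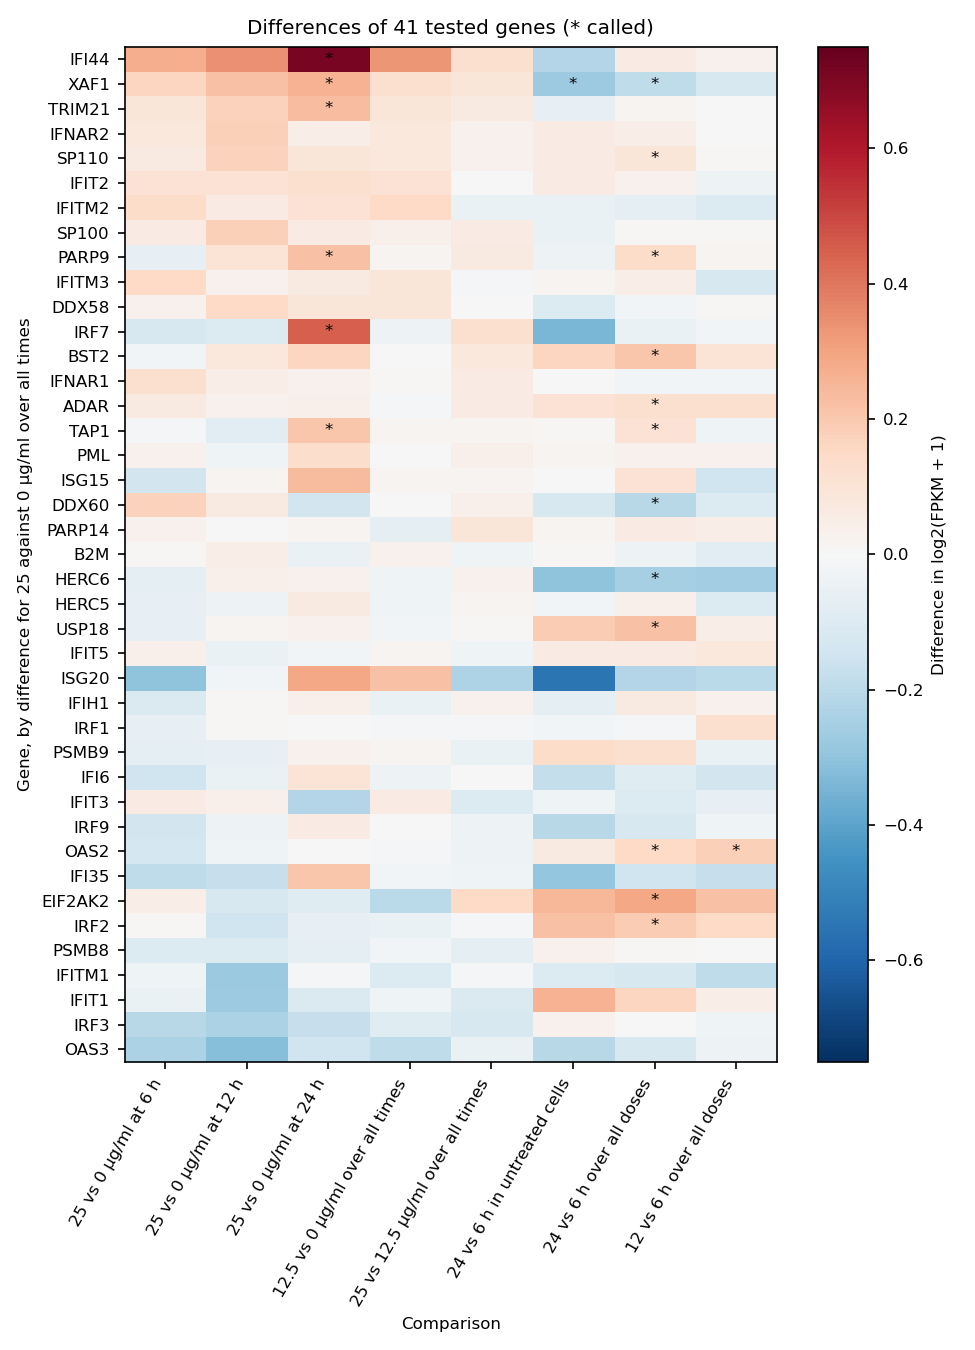
Differences in log2(FPKM + 1) as colours (red higher, blue lower) for the 41 tested genes (rows, ordered by the difference between 25 and 0 µg/ml over all times) in 8 comparisons (columns), with an asterisk where limma called the gene. IFI44 deepens from 0.27 at 6 h to 0.71 at 24 h and IRF7 goes from -0.12 to 0.45, while OAS3 and IRF3 in the bottom rows are blue at each time.

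Whether the effect of 25 µg/ml differed between 24 and 6 h was tested as an interaction. By limma 0 of 41 genes passed (3.3% of all genes), and 6 had an unadjusted p under 0.05. The interaction was 0.28 for PARP9 (95% interval 0.12 to 0.43, adjusted p = 0.0582), 0.22 for TAP1 (0.08 to 0.36, 0.0882) and 0.56 for IRF7 (0.15 to 0.98, 0.116). For IFI44 it was 0.45 (0.11 to 0.78, 0.12), for ISG15 0.39 (0.09 to 0.69, 0.133) and for DDX60 -0.31 (-0.58 to -0.04, 0.173).

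Between 24 and 6 h, averaged over the 3 doses, limma called 12 of 41 (29.3%, against 25.2% of all genes), 9 higher (11.8% of all genes) and 3 lower (13.4% of all genes). USP18, the ISG15 protease, had the smallest adjusted p. It was at 20.8 and 20.0, 21.0 and 19, and 19.4 and 19.7 FPKM at 6 h over the 3 doses, and at 23.5 and 23.3, 22.6 and 23.0, and 24.7 and 23.0 FPKM at 24 h. Each 24 h library was above each 6 h one, and the difference was 0.22 (SE 0.029, limma adjusted p = 0.000538). BST2 was at 59.2 and 59.3, 63.3 and 56.1, and 61.0 and 56.1 FPKM at 6 h, and at 68.8 and 64.0, 66.5 and 65.2, and 70.4 and 77.8 FPKM at 24 h. It did not overlap either and rose by 0.21 (SE 0.037, limma adjusted p = 0.00247).

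OAS2 and ADAR rose too, and so did the repressor IRF2, which competes with IRF1 for the same sites. OAS2 ran from 12.3 to 14.7 FPKM over the 6 h libraries and from 14.5 to 15.4 FPKM over the 24 h ones, with a difference of 0.15 (limma adjusted p = 0.00541). ADAR ran from 125.7 to 149.3 FPKM and from 151.2 to 157.3 FPKM (0.12, adjusted p = 0.0148), and IRF2 from 8.74 to 9.82 FPKM and from 10.3 to 11.8 FPKM (0.19, adjusted p = 0.0139). PARP9 (0.14, adjusted p = 0.0058), TAP1 (0.11, 0.0136) and SP110 (0.09, 0.0226) were also higher at 24 h. EIF2AK2 ran from 8.63 to 15.3 FPKM at 6 h and from 15.3 to 17.3 FPKM at 24 h, a difference of 0.29 (SE 0.082, limma adjusted p = 0.0258). The value of 8.63 FPKM came from replicate 1 of 12.5 µg/ml, the library that tracked gene length. Without it the difference was 0.18 (adjusted p = 0.00247). The call of EIF2AK2 was lost in 7 of the 17 fits that each left out 1 library, at 0.27 to 0.30 (adjusted p of up to 0.0652), and that of SP110 in 6 of 17.

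The 3 genes that fell with time were XAF1, DDX60 and HERC6. XAF1 fell by 0.19 (limma adjusted p = 0.00112), so that its direction with time was opposite to its direction with dose. DDX60, a helicase linked to RIG-I signalling, ran from 3.76 to 5.04 FPKM at 6 h and from 3.26 to 4.22 FPKM at 24 h and fell by 0.21 (adjusted p = 0.0131). HERC6, a relative of the ISG15 ligase HERC5, ran from 1.1 to 1.51 FPKM and from 0.84 to 1.13 FPKM and fell by 0.25 (adjusted p = 0.0137). All 3 overlapped between the times. Without overlap, 5 genes were higher at 24 h (IRF2, EIF2AK2, ADAR, BST2 and USP18, 12.2% against 3.37% of all genes) and none lower (0 of 41, against 4.13% of all genes).

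**Figure D5:**
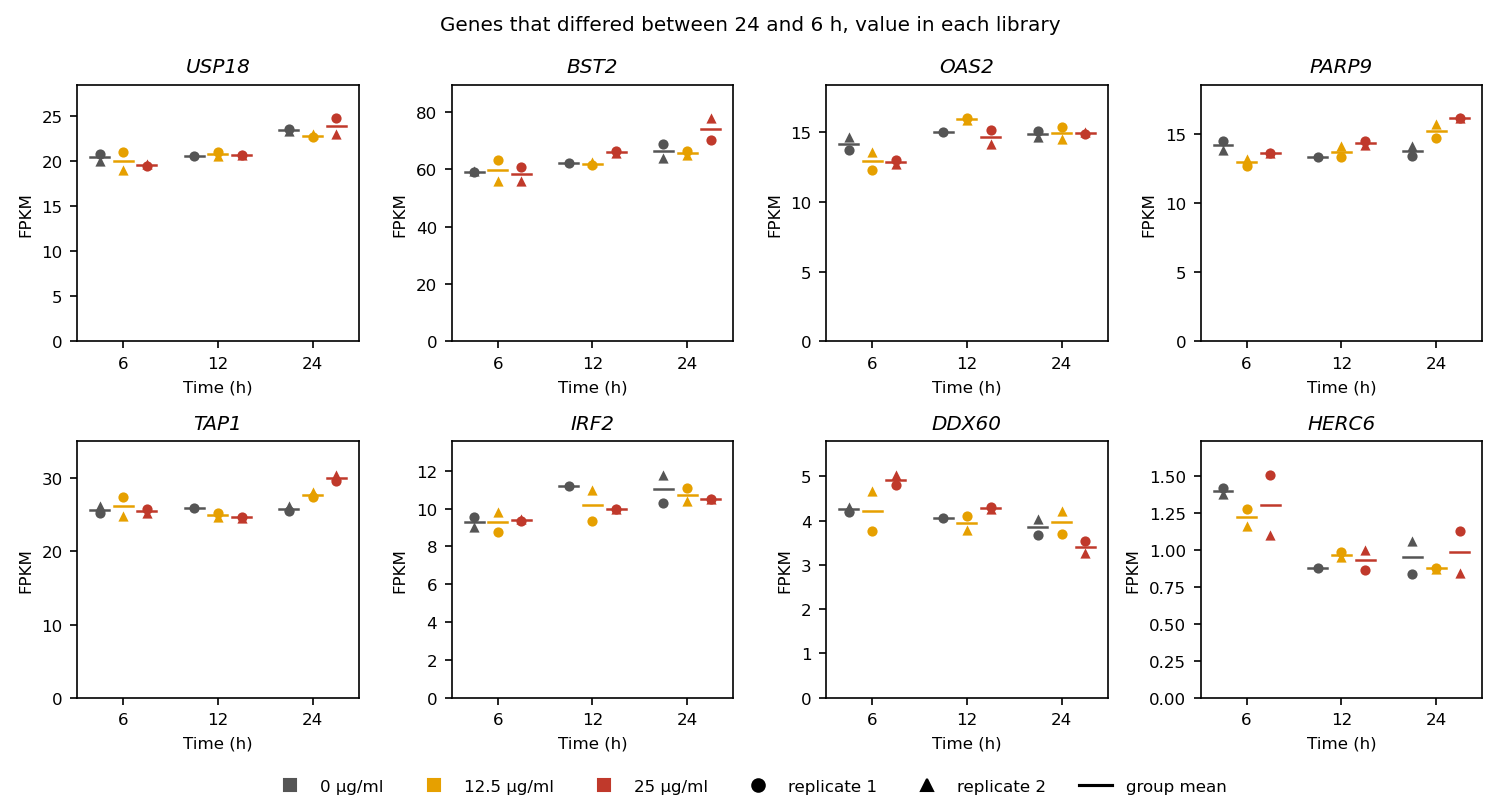
FPKM of 8 genes called between 24 and 6 h in each library, by time, with dose by colour, replicate by marker shape and group means as bars. USP18 and BST2 lie higher at 24 h than at 6 h at each dose, PARP9 and TAP1 spread by dose at 24 h, and HERC6 is lower at 12 and 24 h.

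Because every 24 h library ran in lane 4, time and lane are partly confounded. With lane as a covariate DDX60 (-0.15, limma adjusted p = 0.0912), SP110 (0.08, 0.0883) and TAP1 (0.09, 0.0799) lost their calls. In that fit 19.3% of all genes were called, against 25.2% in the main fit. Lane 4 alone holds fewer 6 h libraries, and fewer of all genes were called in it than in the main fit. Within lane 4 alone 6 of the 12 passed: ADAR (0.16, adjusted p = 0.0157), EIF2AK2 (0.42, 0.01), HERC6 (-0.31, 0.0494), OAS2 (0.19, 0.0289), USP18 (0.19, 0.028) and XAF1 (-0.16, 0.0458). In untreated cells alone, 1 of 41 genes passed between 24 and 6 h (2.44%, against 2.33% of all genes in either direction and 1.77% lower). It was XAF1, at -0.27 (SE 0.05, limma adjusted p = 0.021), and it lost the call when any of the 4 libraries compared was left out. Between 12 and 6 h 1 of 41 passed (2.44%, against 3.03% of all genes in either direction and 1.16% higher), OAS2 at 0.18 (SE 0.034, adjusted p = 0.0238), and with lane as a covariate it was at 0.14 (0.145). OAS2 also lost that call in 6 of the 16 fits that each left out 1 library, at 0.16 to 0.18.

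Across the 10 comparisons 18 of the 41 genes were called at least once, 10 for dose and 12 for time, and PARP9, SP110, TAP1 and XAF1 for both. The share of all genes called at least once was not counted, so these counts are not set against a background. Between 24 and 6 h over all doses 25.2% of all genes were called, and for 25 against 0 µg/ml at 24 h 16.5%. The 23 never called include both receptor chains, IRF1, IRF9, the sensors IFIH1 and DDX58, the 4 IFIT genes, the 3 IFITM genes, ISG15, PML, both immunoproteasome subunits and B2M.

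Other genes of the pathway were read from a list of 98 symbols, of which 93 were in the table and 68 at a mean of 1 FPKM or more. Of the 6 interferon genes in the table none reached a mean of 1 FPKM. IFNA1, IFNA2, IFNE and IFNK were listed at 0 in all 17 libraries, IFNB1 was between 0 and 0.396 FPKM, and IFNG had a mean of 0.0241 FPKM. With 25 µg/ml over all times 7 of the 68 rose and 2 fell, where 5.47% of all genes rose and 4% fell, at a median of 0.04. Among those with the smallest p were UBA7, the enzyme that activates ISG15 (0.30, limma adjusted p = 0.00284), STAT2 (0.20, 0.00444), STAT3 (0.15, 0.00517), the interferon gamma receptor chain IFNGR1 (0.24, 0.00856) and the guanylate-binding protein GBP3 (0.24, 0.00897). PARP12, an antiviral mono-ADP-ribosyltransferase, fell by 0.25 (0.00161). UBA7 was low, at a mean of 1.71 FPKM (1.25 to 2.19 FPKM), near the threshold of 1 FPKM. At 24 h 18 of the 68 rose and 1 fell, where 10.7% of all genes rose and 16.5% were called in either direction. Calls among the 68 were not refitted with libraries left out or under other alternatives. Between 24 and 6 h over all doses 12 rose and 12 fell, where 11.8% and 13.4% of all genes did.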

How the data were processed

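The authors deposited 1 table of FPKM values with a column for each of the 17 libraries, aligned with TopHat2 2.1.0 per the submitters' processing notes. The sources used here name no quantifier, genome build or annotation for it, so positions are those of the RefSeq windows on GRCh38.p14. Of lines that shared a symbol (45 repeats) the one with the higher mean was used. The 12015 genes with a mean of at least 1 FPKM were fitted on log2(FPKM + 1) with limma 3.58.1 in R 4.3.3. The fit held 9 group means, 8 residual and 3 prior degrees of freedom and a variance trend, so the lone untreated 12 h library was assumed to vary like the others. Tests were two-sided, and p-values were adjusted by Benjamini-Hochberg over all genes tested. Effects over all times or doses are means of the 3 single effects. FPKM keeps no read counts. Relative depth came from the steps between low values of 6620 genes with a mean below 0.3 FPKM.

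The 49 genes, the pathway list and the tests were chosen with earlier results of these data known. Named in full were genes called in any of 10 comparisons, the 4 highest and the 3 nearest to 1 FPKM on either side. Other genes named without a call were chosen after their values were seen. GENCODE v29 gave GC content and length, matched for 11194 of the 12015 genes (93.2%), and were corrected by loess (span 0.3). The main fit did not pair samples by replicate number. A few counted genes are not named.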

Additional observations from a re-analysis of the deposited data

How the results depend on the processing

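The 27 called effects on single genes were refitted under alternatives in pseudocount, filter, scaling, variance trend, lane, samples, GC content and length, replicate block and each library left out, 791 fits in all. In 0 of them did the sign change, and in 653 the call was kept. Of 296 counts of called genes, 249 stayed within 1.5 times the value reported. The cause of the changes below was not tested.

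For 25 against 0 µg/ml over all times (7 calls), lane 4 alone gave 0, lane 5 alone 0, the fit without 12 h libraries 2 and the fit without 24 h libraries 0. For 25 against 0 µg/ml at 24 h (6 calls), lane 4 alone gave 3 and the fit of only the groups compared 0. Between 24 and 6 h over all doses (12 calls), lane 4 alone gave 6. In untreated cells (1 call), lane 4 alone gave 0, only the groups compared 0, and the correction for GC content and length 4. Between 12 and 6 h (1 call), quantile normalization gave 2, no variance trend 2, lane as a covariate 0, lane 5 alone 0, only the groups compared 0, and the correction for GC content and length 7. Of all genes, that correction called 8.13% in untreated cells and 6.75% between 12 and 6 h, against 2.33% and 3.03% in the main fit. With only the groups compared, 0.0999% of all genes were called for 25 against 0 µg/ml at 24 h, against 16.5%. The correction for GC content and length gave 3 calls for 12.5 against 0 µg/ml (1.74% of all genes) and 1 for the interaction (2.62%), where reported counts are 0. A filter at a mean of 5 FPKM also gave 1 for the interaction (4.42%).

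With the replicate block, 25 against 0 µg/ml gave 6 calls over all times (SP100 was lost), where 8.06% of all genes were called. At 24 h it gave 5 (IRF7 was lost at limma adjusted p = 0.0515), where 15.2% were. Between 24 and 6 h over all doses it gave 12, where 24.3% were. Joined to the correction for GC content and length, the replicate block gave 3 calls for 12.5 against 0 µg/ml (1.56% of all genes). In untreated cells between 24 and 6 h it gave 4 (7.87%), and between 12 and 6 h 5 (5.99%). Differences between replicates 2 and 1 correlated between doses at -0.18 to 0.03 across genes, so they were not shared between doses. Whether replicates were handled as sets cannot be read from this, and at 6 h the replicate number goes with the lane.

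Leaving out each library in turn gave 5 to 10 calls for 25 against 0 µg/ml over all times, 0 to 5 for 12.5 against 0 and 0 to 7 for 25 against 12.5 µg/ml. It gave 0 to 1 for 25 against 0 µg/ml at 6 h, 0 to 1 at 12 h and 1 to 8 at 24 h. It gave 0 to 5 for 24 against 6 h in untreated cells, 10 to 19 over all doses, 0 to 14 for 12 against 6 h and 0 to 3 for the interaction. The highest counts came without replicate 1 or 2 of 12.5 µg/ml at 6 h, and the lowest at 24 h without replicate 2 of the untreated group. In the first case more of all genes were called than in the main fit, and in the second fewer were. Without the single untreated 12 h library, no value could be had for 25 or 12.5 against 0 µg/ml over all times, 25 against 0 µg/ml at 12 h, or 12 against 6 h over all doses. The unknown depth limits genes near 1 FPKM most.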
